A study of Mus musculus with 49 samples.

Results

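The data describe B lineage cells of HEL-Ig bone marrow that carried little IgM on their surface (HEL-Mlo), set against cells of the same transgenic origin sorted for high surface IgM (HEL-Mhi). HEL-Ig is a conventional transgene that encodes a rearranged heavy and light chain against hen egg lysozyme (HEL). The comparison used 6 of the 49 arrays of the series, the 3 labelled HEL-Mlo and the 3 labelled HEL-Mhi. All 6 were among the 12 arrays of the first U74A version, and the other 37 were U74Av2 arrays. Transcripts were measured on Affymetrix arrays, on which several probes are summarised as 1 signal per probe set. The 6 arrays were chosen by the sort on the label, and no measured value was used to pick them. The gene lists below were drawn up with earlier results of these data known. Their counts are therefore descriptive and are not independent support.

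HEL-Mlo cells were grown from HEL-Ig bone marrow for 5 d with 16 ng/mL interleukin-7 (IL-7) and sorted for low IgMa, the allotype of the transgene, without IgD. Their labels name no B220 gate for this sort, and do not state whether the cells met HEL. HEL-Mhi cells came from bone marrow of anti-HEL transgenic mice, were expanded with IL-7, and were sorted for high surface IgM with absent or low IgD. A further IgM-high group, Ctrl 48 h (3 arrays), carried a Rag2-GFP reporter beside HEL-Ig. After 5 d in IL-7 these cells spent 48 h without IL-7 and without HEL, and were sorted as B220+ IgMa-high GFP-negative. The HEL 48 h group (3 arrays) differed from Ctrl 48 h in 1 ug/mL HEL and in its GFP+ sort. The mice were young, a few weeks of age. The Methods speak of independent sorts, but neither they nor the labels say whether replicates were separate cultures or animals, so the p-values measure only the spread between these arrays.

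In the bone marrow, pro-B and pre-B cells grow in IL-7, rearrange their immunoglobulin genes with the Rag recombinase, and show a pre-B cell receptor made of a heavy chain and a surrogate light chain. Once a complete receptor reaches the surface as IgM, the cell is an immature B cell. By this stage cells have mostly stopped dividing and lost the surrogate light chain. They go on to acquire more MHC class II, CD20 (Ms4a1), CD22 and other proteins of mature B cells.

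The HEL-Mlo signals were on another scale. Their median signals were 29.6 to 38.8 units, against 512.3 to 539.8 units for HEL-Mhi, a 16.0-fold difference between the mean medians. Signals were therefore replaced by percentile ranks within each array, from 0 to 100 with the highest signal at 100, over the 9977 probe sets with a value on all 6 arrays. A rank is relative: a gene moves up only as others move down, and near the top a step of 1 percentile point spans about 100 places. Ranks correlated at 0.923 to 0.951 among the 3 HEL-Mlo arrays, at 0.952 to 0.96 among the 3 HEL-Mhi arrays, and at 0.903 to 0.935 between the groups over these 9977 probe sets. The groups also differed in the stated RNA labelling. The HEL-Mlo arrays came from 3 scan days and 2 chip lots, shared with no 48 h array, and no run record for HEL-Mhi was used here. Labelling, run and sort cannot be told apart.

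Of the 9977 probe sets, 5268 had a mean percentile rank of at least 50 in HEL-Mlo or HEL-Mhi and were tested with limma (two-sided, Benjamini-Hochberg adjusted p under 0.05). A total of 1520 were called, 28.9% of those tested. In HEL-Mlo cells 789 ranked higher (15.0%) and 731 ranked lower (13.9%). These shares are the background for the list counts below, and whether a list departed from them was not tested. Some genes belong to more than 1 list and are counted in each. Recombination (1 of 6 tested genes higher), the Bcl2 family (1 of 9), glycolysis (3 of 14) and cholesterol (2 of 14) lay near 15.0%. The median difference over all ranked probe sets was 0.01 percentile points, and the median size of a called difference was 9.6 points with a median standard error of 2.64 points over the tested probe sets. The 3 and 3 ranks did not overlap for 2408 probe sets, more than the 1520 called. A lack of overlap was therefore common, and by itself it does not set a gene apart. Just inside the threshold, Gpr19 had mean ranks of 42.5 in HEL-Mlo and, in HEL-Mhi, of the threshold itself. Just outside it an unnamed probe set had 45.8 in HEL-Mlo and 49.95 in HEL-Mhi. Of the 5268 probe sets, 654 reached the threshold in 1 group only, so the filter fixed their direction. Of these 654, 172 were called (26.3%), and 112 of the 172 were also called with no filter. Genes named below that reached the threshold in HEL-Mlo only include Myc, Il7r, Nolc1, Shmt1, Rangrf, Tspan4 and Trgv4. Those that reached it in HEL-Mhi only include Cd55, Cd40, Cd2, Cd6, Ms4a4c, Il10ra and BC147527. Among these named genes, Cd6 alone was not called with no filter. Without HEL-Mlo 1 the count was 928, without HEL-Mhi 2 it was 987, and the t-test of the Methods with adjustment gave 185.

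**Figure D1:**
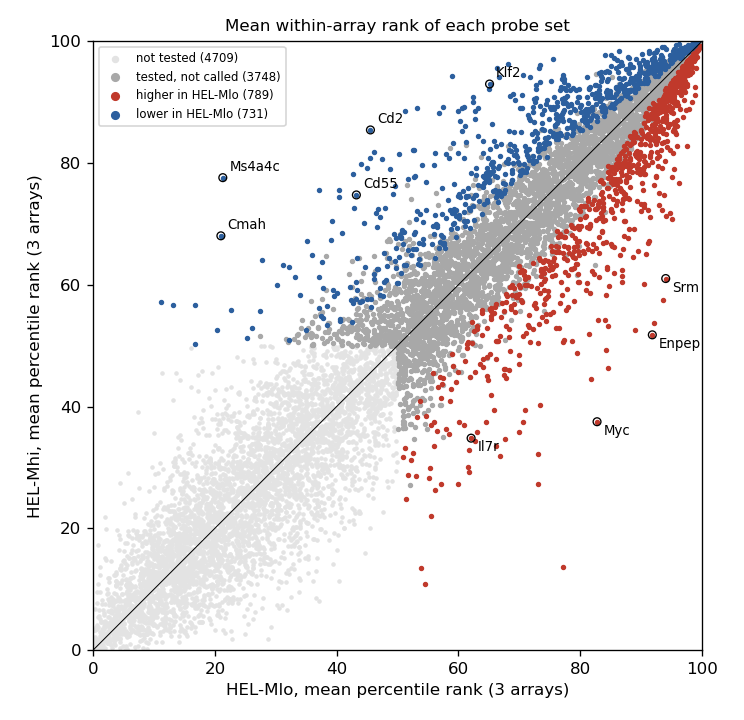
Mean percentile rank over 3 HEL-Mlo arrays (horizontal axis) and over 3 HEL-Mhi arrays (vertical axis) for each of the 9977 probe sets, with the line of equal ranks. Red marks the 789 probe sets called higher in HEL-Mlo, blue the 731 called lower, and 9 genes are ringed.

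**Figure D2:**
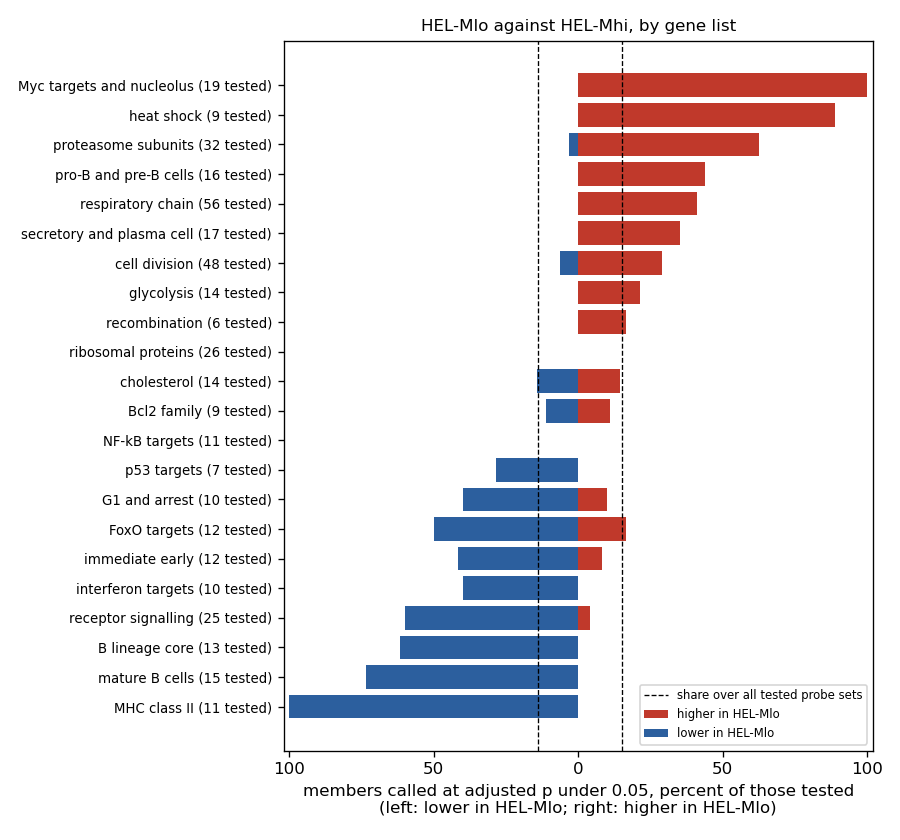
Percent of the tested members of each gene list that were called higher (red, right) or lower (blue, left) in HEL-Mlo than in HEL-Mhi. The dashed lines mark the shares over all tested probe sets, 15.0% higher and 13.9% lower; every tested member of the Myc and nucleolus list lies on the right and every tested MHC class II gene on the left.

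The sort separated cells by the IgM protein on their surface, and the IgM heavy chain transcript was abundant in both groups. The brightest Ighm probe set stood at positions 3, 3 and 1 of 9977 in the HEL-Mlo arrays and at positions 2, 1 and 1 in the HEL-Mhi arrays (adjusted p = 0.96). At such positions a rank can hardly show a difference in amount. Of the 35 heavy chain probe sets measured, 10 were tested and 3 fell, all of them probe sets for the variable gene Ighv14-2. The brightest of these ranked at 70.2, 71.2 and 78.6 in HEL-Mlo, against 93.3, 92.3 and 94.2 in HEL-Mhi, a difference of -19.9 ± 2.4 points (SE, adjusted p = 0.0012). The groups did not overlap. Cross-hybridization between variable genes limits the naming of such probe sets.

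Light chain probe sets showed 1 large difference. A lambda light chain probe set that matches more than 1 gene ranked at 1.0, 24.5 and 7.8 in HEL-Mlo and at 48.3, 46.9 and 76.5 in HEL-Mhi (difference -46.1 ± 11.3 points, SE, adjusted p = 0.02). All 3 HEL-Mlo arrays lay below all 3 HEL-Mhi arrays. The probe set reached the threshold only through HEL-Mhi, was called with no filter as well (adjusted p = 0.026), and was not tested under a filter on the mean of all 6 arrays. The call was lost when HEL-Mlo 1 or HEL-Mhi 2 was left out. Without HEL-Mhi 3, the array at 76.5, both other HEL-Mhi ranks lay below the threshold and the probe set could not be tested. Of 35 kappa probe sets, 11 were tested and 1 fell (Igkv14-111, -11.0 points, adjusted p = 0.045), a call lost without HEL-Mlo 1, HEL-Mlo 3, HEL-Mhi 1 or HEL-Mhi 2 and with no intensity trend in the fit.

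Several transcripts that mark early B cells were higher in HEL-Mlo cells, and about as many did not pass the test. Of 19 measured genes listed for the pro-B to pre-B stages, 16 were tested, 7 rose and 0 fell by limma, and the median difference over the 19 genes was 0.2 points beside 0.01 over all probe sets. Enpep encodes aminopeptidase A (BP-1), a surface enzyme of pre-B cells. It ranked at 90.6, 89.9 and 95.0 in HEL-Mlo, against 46.6, 43.2 and 65.5 in HEL-Mhi, a rise of 40.1 ± 5.6 points (SE, adjusted p = 0.0023). Il7r, the alpha chain of the IL-7 receptor, ranked at 58.1, 65.3 and 62.9 in HEL-Mlo and at 38.4, 36.6 and 29.4 in HEL-Mhi (27.3 ± 4.1 points, adjusted p = 0.0032). Neither gene showed any overlap between the groups.

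The surrogate light chain is made of the products of Vpreb1 and Igll1, both close to the top of every HEL-Mlo and HEL-Mhi array. Vpreb1 stood at positions 158, 186 and 137 in HEL-Mlo, against 890, 1172 and 911 in HEL-Mhi, which is 8.3 ± 0.7 percentile points (SE, adjusted p = 0.00053). Igll1 (lambda5) stood at positions 93, 142 and 126 in HEL-Mlo and at positions 600, 639 and 1000 in HEL-Mhi, 6.3 ± 1.0 points (adjusted p = 0.0035). The HEL-Mlo arrays placed both transcripts nearer the top than any HEL-Mhi array. Vpreb3, whose product binds newly made light chains, stood at positions 167, 110 and 120 in HEL-Mlo and 87, 103 and 98 in HEL-Mhi, and did not pass the test (adjusted p = 0.2).

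The other early genes that rose encode transcription factors. Irf4, which acts downstream of the pre-B cell receptor in light chain rearrangement, ranked at 73.5, 84.1 and 90.4 in HEL-Mlo and at 65.4, 63.1 and 69.8 in HEL-Mhi (16.5 ± 4.3 points, SE, adjusted p = 0.026). Its HEL-Mlo arrays spread widely, and the call was lost without any of HEL-Mlo 2, HEL-Mlo 3, HEL-Mhi 1 and HEL-Mhi 2. Lef1, a partner of beta-catenin in early B cells, rose by 8.9 points (adjusted p = 0.012, lost without HEL-Mlo 1) and Myb, needed for pro-B cells, by 3.4 points (adjusted p = 0.0063). Both Irf4 and Myb also missed the threshold with no intensity trend in the fit (adjusted p = 0.062 each). Sox4, a factor of pro-B cells, ranked at 83.7, 84.3 and 90.5 in HEL-Mlo and 77.9, 76.1 and 84.6 in HEL-Mhi and did not pass (adjusted p = 0.12). Spn (CD43) and Kit, markers of pro-B cells, differed by -3.7 and -0.9 points; Spn did not pass (adjusted p = 0.57) and Kit ranked too low to be tested.

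Of the recombination machinery, 1 gene passed the test. Of 8 measured genes on that list, 6 were tested and 1 rose (2 without HEL-Mlo 2), Xrcc6 (Ku70), which joins broken DNA ends. It ranked at 82.5, 84.6 and 83.8 in HEL-Mlo and at 72.6, 64.1 and 69.3 in HEL-Mhi, a rise of 15.0 ± 2.7 points (SE, adjusted p = 0.0062), with no overlap. The median over the 8 genes was 7.1 points. Dntt, the terminal transferase, ranked at 56.0, 55.3 and 74.9 in HEL-Mlo and at 52.5, 45.1 and 60.1 in HEL-Mhi, and did not pass (adjusted p = 0.28). Rag1 ranked at 30.3, 62.1 and 41.7 in HEL-Mlo, against a mean of 15.9 ± 11.2 (SD over 3 arrays) and a highest array of 26.0 in HEL-Mhi. All 3 HEL-Mlo values lay above the HEL-Mhi values, but the means of both groups were below the threshold for testing, and with no such threshold the adjusted p was 0.1. Rag2 ranked at 15.4, 16.5 and 21.7 in HEL-Mlo and at 15.6, 7.8 and 11.2 in HEL-Mhi, also too low to be tested. The HEL 48 h cells, sorted for Rag2-GFP, had Rag1 at 98.2, 98.1 and 97.9, so the probe set could reach the top of the array.

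**Figure D3:**
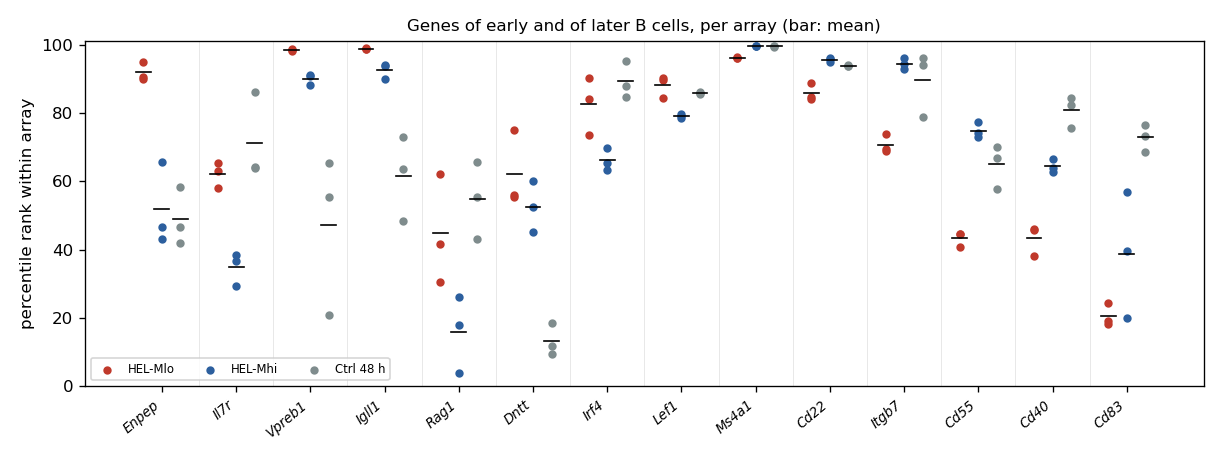
Percentile rank in each array (points) and group mean (bars) of genes of early B cells (left) and of later B cells (right), in HEL-Mlo (red), HEL-Mhi (blue) and Ctrl 48 h (grey). Enpep, Il7r, Vpreb1 and Igll1 lie higher in HEL-Mlo than in HEL-Mhi, and Ms4a1, Cd22, Itgb7, Cd55 and Cd40 lie lower, without overlap.

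Genes of mature B cells were lower in HEL-Mlo cells. Of 18 measured list genes, 15 were tested, 11 fell and 0 rose by limma, with a median of -13.7 points over the 18 genes beside 0.01 over all probe sets. Because RNA was pooled from many cells, fewer cells of a later type and less of each transcript per cell cannot be told apart. Ms4a1 (CD20), a membrane protein of B cells that express surface receptor, stood at positions 382, 386 and 376 in HEL-Mlo, against 44, 44 and 42 in HEL-Mhi (-3.4 ± 0.2 points, SE, adjusted p = 0.00025). Cd55, a complement regulator, ranked at 44.6, 40.7 and 44.4 in HEL-Mlo and at 72.9, 77.3 and 74.1 in HEL-Mhi (-31.5 ± 2.6 points, adjusted p = 0.00046). In both genes the 3 arrays of a group lay close together and far from the other group.

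Adhesion, inhibitory and costimulatory receptors followed the same direction. Itgb7, the beta7 chain of lymphocyte integrins, ranked at 69.3, 73.8 and 68.9 in HEL-Mlo and at 92.8, 94.2 and 96.2 in HEL-Mhi (-23.7 ± 1.9 points, SE, adjusted p = 0.00046). Cd22, an inhibitory receptor that recruits the phosphatase SHP-1, fell by 9.8 points (adjusted p = 0.0014). Cd40, which receives T cell help, ranked at 45.8, 38.2 and 46.0 in HEL-Mlo and at 64.0, 66.6 and 62.7 in HEL-Mhi (-21.1 ± 3.3 points, adjusted p = 0.0037). None of these 3 genes overlapped between the groups. Ltb, Ccr7, Cd82, Cxcr5, Fcgr2b and Icam1 fell as well, by 28.3, 22.2, 16.2, 13.7, 10.7 and 10.3 points. Cd83 (20.4 in HEL-Mlo and 38.8 in HEL-Mhi) and Fcer2a, the low-affinity IgE receptor CD23 (22.6 in HEL-Mlo and 20.5 in HEL-Mhi), ranked too low in both groups to be tested.

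All 11 tested MHC class II genes were lower in HEL-Mlo cells. The list holds the chains of the class II molecules, their chaperones, their transactivator and Ctss, a protease. The median over its 12 measured genes was -9.8 points. H2-Aa, an alpha chain of the peptide-presenting molecule, stood at positions 602, 430 and 935 in HEL-Mlo, against 91, 83 and 89 in HEL-Mhi (-5.7 ± 1.1 points, SE, adjusted p = 0.0086). Cd74, the invariant chain, stood at positions 79, 87 and 91 in HEL-Mlo and at position 8 in each HEL-Mhi array (-0.8 ± 0.1 points, adjusted p = 0.0046). Each HEL-Mlo array placed both transcripts further down than every HEL-Mhi array. H2-DMb1 and H2-DMb2, chains of the peptide editor H2-DM, fell to means of 86.4 and 75.6 in HEL-Mlo, against 98.4 and 97.1 in HEL-Mhi (adjusted p = 0.00039 and 0.0009). H2-Oa and H2-Ob, the chains of its inhibitor H2-O, fell by 22.6 and 13.6 points (adjusted p = 0.0024 and 0.00075). Ciita, the coactivator that class II promoters depend on, ranked at 55.7, 61.5 and 65.2 in HEL-Mlo and at 72.8, 74.2 and 79.3 in HEL-Mhi (-14.6 ± 3.2 points, adjusted p = 0.013). H2-Ab1 and H2-Eb1 fell by 4.5 and 5.4 points, the second call being lost without HEL-Mhi 2 or HEL-Mhi 3. H2-Eb2 ranked too low to be tested, at means of 11.6 in HEL-Mlo and 26.6 in HEL-Mhi. With no intensity trend 8 genes of the list fell, and Cd74 was not among them (adjusted p = 0.45).

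**Figure D4:**
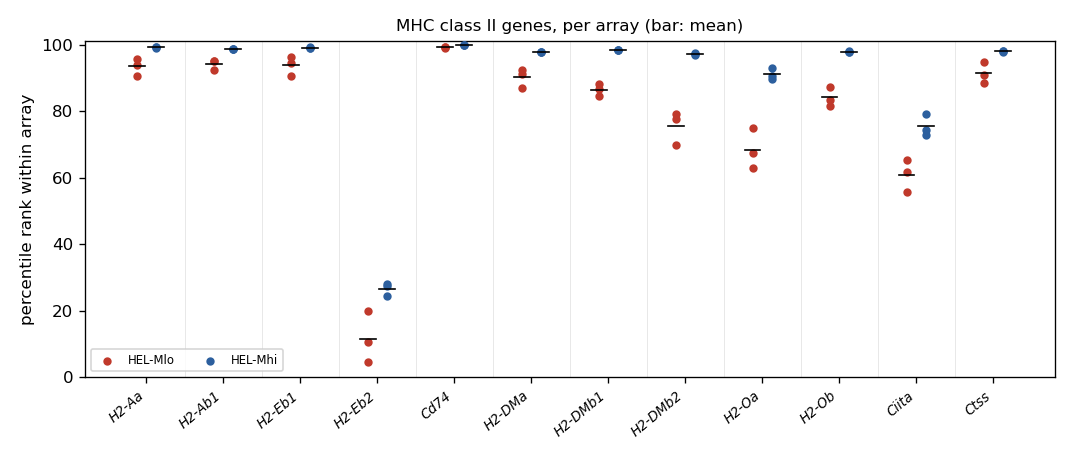
Percentile rank in each array (points) and group mean (bars) of the 12 measured MHC class II genes in HEL-Mlo (red) and HEL-Mhi (blue). The HEL-Mlo points lie below the HEL-Mhi points for all 12 genes, H2-Eb2 included, which was too low to be tested.

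Class II promoters share a set of short elements, the last of which, the Y box, contains CTGATTGG or its reverse complement CCAATCAG, the binding sequence of the factor NF-Y. Both strands of the 300 bases from 250 before to 50 after the RefSeq start site (GRCm38.p6) were searched. The letters were present for 4 of the 9 list genes with such a window, namely H2-Aa, H2-Eb1, H2-Eb2 and H2-Oa, and for 1271 of all 27025 genes (4.7%). The match describes the sequence only. The stretches around the match in 3 genes that fell are shown 5′ to 3′ on the strand of the gene, with the match in capitals. These stretches were picked to show the element in class II promoters, and the match was not shared by the whole list. They lie at chr17:34287827-34287914 (minus strand), chr17:34305765-34305852 (plus strand) and chr17:34092293-34092380 (plus strand), and the first capital is base -51, -62 and -46 relative to the start site.
H2-Aa: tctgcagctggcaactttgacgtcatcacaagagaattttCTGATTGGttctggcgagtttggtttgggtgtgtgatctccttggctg
H2-Eb1: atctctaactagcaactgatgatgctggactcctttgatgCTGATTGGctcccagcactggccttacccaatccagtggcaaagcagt
H2-Oa: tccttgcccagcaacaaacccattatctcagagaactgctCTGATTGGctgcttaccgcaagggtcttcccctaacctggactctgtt

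The B lineage identity of HEL-Mlo cells was visible in genes used throughout B cell development. Their list had a mean rank of 83.9 to 88.4 in the HEL-Mlo arrays, against 91.3 to 93.3 in the HEL-Mhi arrays. All 13 measured genes were tested, 8 fell and 0 rose by limma, with a median of -2.2 points; with no intensity trend 3 fell. Ptprc (CD45), the phosphatase of which B220 is a form, ranked at 78.7, 76.7 and 76.8 in HEL-Mlo and at 92.9, 93.7 and 94.6 in HEL-Mhi (-16.3 ± 1.2 points, SE, adjusted p = 0.00039). Fcrla, an Fc receptor-like protein of B cells, ranked at 73.7, 82.9 and 76.5 in HEL-Mlo and at 88.9, 93.5 and 93.4 in HEL-Mhi (-14.2 ± 2.5 points, adjusted p = 0.0061). The 2 groups stood apart in both genes. Pax5, the factor that fixes B lineage identity, ranked at 89.0, 91.0 and 94.0 in HEL-Mlo and at 91.2, 90.9 and 94.9 in HEL-Mhi, and did not pass (adjusted p = 0.66). Its partner Ebf1 fell by 6.9 points (adjusted p = 0.02), a call lost without HEL-Mhi 1 or HEL-Mhi 2. Cd79a, the signalling chain of the receptor, fell by 1.3 points to positions 147, 246 and 111 in HEL-Mlo, against 47, 45 and 33 in HEL-Mhi (adjusted p = 0.025). That call was lost without HEL-Mlo 1 or any 1 of the HEL-Mhi arrays. Irf8 and Cd37 also fell, by 1.7 and 3.3 points.

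Genes of signal transmission from the receptor were mostly lower as well. Of 27 measured genes on the list 25 were tested, 15 fell and 1 rose, with a median of -4.4 points over the 27 genes. The 1 that rose was Akt1, a kinase downstream of PI 3-kinase (3.8 points, adjusted p = 0.013). With no intensity trend 10 fell, and leaving out single arrays gave 10 to 18 falls. Lat2, an adaptor of the proximal receptor complex, ranked at 88.0, 87.2 and 85.1 in HEL-Mlo and at 96.5, 96.7 and 96.6 in HEL-Mhi (-9.8 ± 0.8 points, SE, adjusted p = 0.00046). Sh2b3 (Lnk), an adaptor that dampens cytokine signals, ranked at 74.1, 72.3 and 74.9 in HEL-Mlo and at 89.2, 86.2 and 88.6 in HEL-Mhi (-14.3 ± 1.8 points, adjusted p = 0.0016). The groups did not overlap in either gene. Ptpn6, which encodes the inhibitory phosphatase SHP-1, fell by 4.4 points (adjusted p = 0.00053), and Btk, a kinase that activates phospholipase C gamma 2, by 3.9 points (adjusted p = 0.0012). The kinases Syk, Blk and Fyn and the exchange factor Vav1 fell by 1.8, 2.6, 14.1 and 10.3 points. Plcg2 itself did not pass (-2.2 points, adjusted p = 0.072).

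The largest coordinated rise was that of genes linked to Myc and to the nucleolus, where ribosomes are assembled. Of 20 measured list genes, 19 were tested and all 19 rose, with a median of 15.8 points over the 20 genes beside 0.01 over all probe sets; 13 rose with no intensity trend. The list averaged 86.1 to 87.9 in the HEL-Mlo arrays and 69.9 to 72.3 in the HEL-Mhi arrays. Myc, a transcription factor that drives growth, ranked at 86.7, 80.1 and 81.6 in HEL-Mlo, against 38.9, 43.7 and 30.0 in HEL-Mhi, a rise of 45.3 ± 3.9 points (SE, adjusted p = 0.00053). Srm, which makes the polyamine spermidine, ranked at 95.2, 93.7 and 93.2 in HEL-Mlo and at 56.8, 65.5 and 60.7 in HEL-Mhi (33.0 ± 2.6 points, adjusted p = 0.00046). Both genes had a gap of more than 20 points between the lowest HEL-Mlo and the highest HEL-Mhi array.

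Nucleolar proteins showed differences of the same size. Gnl3 (nucleostemin) ranked at 91.4, 90.5 and 85.0 in HEL-Mlo and at 50.8, 50.5 and 56.6 in HEL-Mhi (36.4 ± 2.9 points, SE, adjusted p = 0.00046). Nolc1, a chaperone of small nucleolar particles, ranked at 75.4, 66.8 and 77.0 in HEL-Mlo and at 42.4, 19.2 and 34.8 in HEL-Mhi (40.9 ± 6.1 points, adjusted p = 0.0031). Nop56, a core protein of the particles that methylate ribosomal RNA, rose by 13.7 points (adjusted p = 0.00039). All 3 stood apart between the groups, although the HEL-Mhi arrays differed widely for Nolc1. Rrs1, Nop58 and Polr1b, which act in ribosome assembly and ribosomal RNA synthesis, rose by 31.4, 24.4 and 23.8 points. Abundant members had little room to rise: Ran, the GTPase of nuclear transport, stood at positions 30, 35 and 29 in HEL-Mlo and at 70, 82 and 91 in HEL-Mhi (0.5 points, adjusted p = 0.03), and its call was lost without any 1 of 5 arrays (all but HEL-Mlo 2) and with no intensity trend. The 33 measured ribosomal protein genes gave a median of 0.0 points, and of the 26 tested 0 were called by limma; 3 rose with normal scores in place of percentile ranks, and 1 fell without HEL-Mlo 3. Rpl13a, for example, ranked at 96.6, 96.7 and 96.8 in HEL-Mlo and at 95.4, 96.8 and 96.2 in HEL-Mhi (adjusted p = 0.27).

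**Figure D5:**
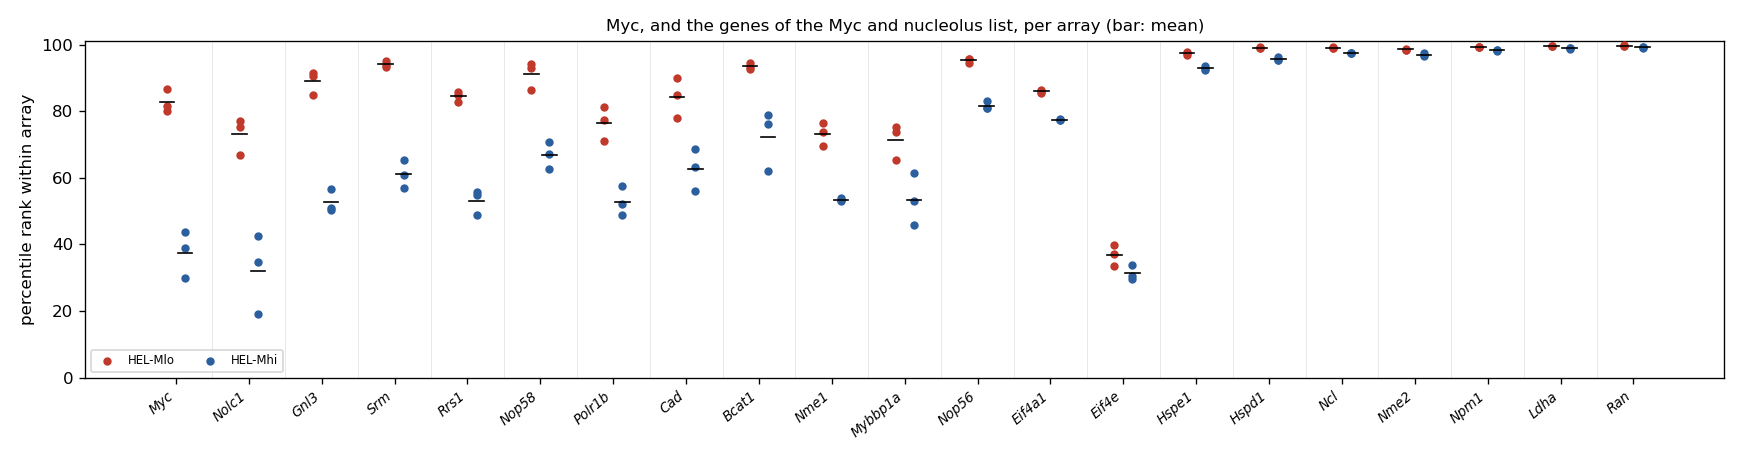
Percentile rank in each array (points) and group mean (bars) of Myc and the 20 measured genes of the Myc and nucleolus list in HEL-Mlo (red) and HEL-Mhi (blue). Myc rose by 45.3 points, Srm by 33.0 points and Ran, close to the top in all arrays, by 0.5 points.

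Myc binds DNA at the E box CACGTG, which reads the same on both strands. In the 300-base RefSeq windows (GRCm38.p6) these letters were present for 7 of the 17 list genes with a window, Nme1, Eif4a1, Eif4e, Ldha, Mybbp1a, Ran and Hspd1, and for 2187 of all 27025 genes (8.09%). A match says nothing about binding here. Stretches of 3 genes that rose are shown 5′ to 3′ on the strand of the gene, with the E box in capitals, because the list was drawn up around Myc. Nme1 and Ran were chosen after their values were seen. They lie at chr11:93968009-93968094 (minus strand), chr1:55088278-55088363 (minus strand) and chr5:129019998-129020083 (plus strand), and the first capital is base -29, -80 and -118 relative to the start site.
Nme1: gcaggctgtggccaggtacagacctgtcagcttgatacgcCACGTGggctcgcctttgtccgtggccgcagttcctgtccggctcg
Hspd1: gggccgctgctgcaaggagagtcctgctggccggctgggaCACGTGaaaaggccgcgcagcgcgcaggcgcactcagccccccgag
Ran: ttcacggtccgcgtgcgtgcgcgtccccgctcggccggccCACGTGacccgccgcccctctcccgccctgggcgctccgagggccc

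Nme1, a nucleoside diphosphate kinase, ranked at 76.5, 73.7 and 69.5 in HEL-Mlo and at 53.2, 53.2 and 54.0 in HEL-Mhi (19.7 ± 2.5 points, SE, adjusted p = 0.0016). Hspd1 and Hspe1, the mitochondrial chaperone pair, stood at positions 78, 104 and 94 and at positions 241, 213 and 306 in HEL-Mlo, against 386, 470 and 465 and 754, 644 and 719 in HEL-Mhi. Both rose, by 3.5 and 4.5 points (adjusted p = 0.00046 and 0.00053), and both were without overlap.

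Chaperones and the proteasome shared this direction. Hspd1 and Hspe1 belong to the heat shock list as well as the Myc list, so their rises are counted in each. Of 13 measured heat shock genes, 9 were tested, 8 rose and 0 fell by limma (median 4.5 points over the 13 genes; 5 rose with no intensity trend), among them the cytosolic chaperones Hspa8 and Hsp90aa1, by 1.5 and 1.8 points. Of 34 measured proteasome subunits, 32 were tested, 20 rose and 1 fell, with a median of 3.0 points. Psmd1, a scaffold subunit of the regulatory particle, ranked at 93.7, 91.8 and 93.2 in HEL-Mlo and at 78.2, 82.7 and 82.7 in HEL-Mhi (11.7 ± 1.5 points, SE, adjusted p = 0.0015). Psmd7 rose by 9.2 points (adjusted p = 0.0012), and neither subunit overlapped between the groups. The 1 subunit that fell was Psmb10, an inducible subunit of the immunoproteasome, by 1.6 points (adjusted p = 0.037). The count of 20 was 7 with no intensity trend and 12 without HEL-Mlo 1. Of 21 measured genes on a secretory list 17 were tested and 6 rose, with a median of 1.5 points; 2 rose with no intensity trend and 3 without HEL-Mlo 1. They were Xbp1, a transcription factor of the secretory apparatus (8.6 points), the folding proteins Hspa5 (2.0), Pdia3 (4.0) and Pdia6 (7.0), Manf (4.9) and the asparagine synthetase Asns (13.5 points).

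Energy genes were called in 1 direction only, and most did not pass the test. Of 65 measured genes of the respiratory chain and ATP synthase, 56 were tested, 23 rose and 0 fell by limma, with a median of 1.7 points; 11 rose with no intensity trend and 15 without HEL-Mlo 1. Ndufab1, a subunit of complex I, ranked at 95.6, 95.8 and 94.6 in HEL-Mlo and at 85.6, 86.1 and 84.8 in HEL-Mhi (9.8 ± 0.7 points, SE, adjusted p = 0.00039). Of 15 measured glycolysis genes 14 were tested and 3 rose, with a median of 0.4 points; 1 rose without HEL-Mlo 1 or without HEL-Mlo 3, 2 without HEL-Mlo 2, HEL-Mhi 1 or HEL-Mhi 2. Hk2, the hexokinase that commits glucose, ranked at 73.8, 75.8 and 82.1 in HEL-Mlo and at 50.7, 42.3 and 58.6 in HEL-Mhi (26.6 ± 4.4 points, adjusted p = 0.0045). Slc16a1, a lactate transporter, ranked at 55.9, 53.9 and 51.7 in HEL-Mlo and at 3.0, 24.8 and 12.8 in HEL-Mhi (40.3 ± 8.8 points, adjusted p = 0.013). Neither overlapped. Slc16a1 reached the threshold only through HEL-Mlo, and its call, made with no filter too (adjusted p = 0.0078), was lost without any 1 of the HEL-Mlo arrays.

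Synthesis of lipids, folate-linked carbon and amino acid uptake included some of the largest rises. Elovl6, which elongates fatty acids, was measured by 2 probe sets, and both rose. One ranked at 92.1, 91.4 and 92.7 in HEL-Mlo and at 56.1, 51.7 and 53.3 in HEL-Mhi (38.3 ± 2.2 points, SE, adjusted p = 0.00025), and the other differed by 35.0 points. Shmt1, the cytosolic serine hydroxymethyltransferase, ranked at 87.7, 83.6 and 82.3 in HEL-Mlo and at 42.3, 43.9 and 52.9 in HEL-Mhi (38.2 ± 3.4 points, adjusted p = 0.00053); a second probe set for it ranked too low to be tested. Slc7a5, the light chain of the amino acid transporter CD98, rose by 17.9 points (adjusted p = 0.0009) and Fasn, the fatty acid synthase, by 14.8 points (adjusted p = 0.0044). None of these 4 genes overlapped between the groups. Of 15 measured cholesterol and lipid genes 14 were tested, with 2 called in each direction and a median of -1.9 points: Fasn and Idi1 rose, and Fdft1 and Scd1 fell. In that list 1 gene rose without HEL-Mlo 1, 0 fell without HEL-Mhi 2, and 1 fell without any 1 of HEL-Mlo 1, HEL-Mlo 2, HEL-Mhi 1 and HEL-Mhi 3.

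Genes of cell division showed a partial pattern. Of 50 measured list genes, 48 were tested, 14 rose and 3 fell, with a median of 1.3 points; the list averaged 87.5 to 88.1 in HEL-Mlo and 80.7 to 85.3 in HEL-Mhi. The rises with the smallest p were in genes that license and start DNA replication. Cdc6, which loads the replicative helicase, ranked at 91.2, 91.6 and 90.7 in HEL-Mlo and at 74.6, 71.8 and 70.4 in HEL-Mhi (18.9 ± 1.8 points, SE, adjusted p = 0.00058). Mcm2, a helicase subunit, ranked at 96.0, 94.7 and 95.4 in HEL-Mlo and at 83.2, 78.3 and 75.7 in HEL-Mhi (16.3 ± 1.8 points, adjusted p = 0.001). The groups were well separated, as they were for Mcm3 and Mcm4, which rose by 14.7 and 9.8 points. Mcm5 stood at positions 113, 166 and 142 in HEL-Mlo and at 199, 246 and 437 in HEL-Mhi and did not pass (adjusted p = 0.08), although it did with normal scores (0.027) and with quantile-normalized log2 signals (0.019). Top2a, the topoisomerase of chromosome segregation, stood at positions 501, 470 and 484 in HEL-Mlo and at 393, 375 and 551 in HEL-Mhi (adjusted p = 0.52). The 3 genes that fell, Ccnf, Aurkb and Cenpa, are used in mitosis. They fell by 3.2, 3.3 and 4.2 points, and 0 fell with no intensity trend or without HEL-Mlo 1, HEL-Mhi 1 or HEL-Mhi 2.

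Of the regulators of the G1 phase, 4 fell and 1 rose. Ccnd2, the cyclin D2 that starts G1 progression, ranked at 92.9, 87.2 and 93.7 in HEL-Mlo and at 66.0, 57.7 and 77.8 in HEL-Mhi (24.2 ± 4.8 points, SE, adjusted p = 0.0094). The HEL-Mlo values lay above all HEL-Mhi values, which spread widely. Of 13 measured genes on the list 10 were tested, Ccnd2 rose, and 4 fell, with a median of -6.8 points. Cdkn2d (p19), an inhibitor of cyclin D kinases, ranked at 88.5, 89.0 and 91.5 in HEL-Mlo and at 97.0, 96.5 and 96.0 in HEL-Mhi (-6.8 ± 0.8 points, adjusted p = 0.0012). Btg1 and Btg2, which restrain division, fell by 9.1 and 5.6 points (adjusted p = 0.0016 and 0.0071), and Rb1, the retinoblastoma protein gene, by 7.6 points (adjusted p = 0.041). Cdkn1a (p21) ranked at 73.9, 77.4 and 83.5 in HEL-Mlo and at 74.7, 69.3 and 70.9 in HEL-Mhi, with overlap, and did not pass (adjusted p = 0.15).

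Genes that FoxO factors activate, which growth factor signals through PI 3-kinase hold down, fell more often than they rose. Of 16 measured genes 12 were tested, 6 fell and 2 rose, with a median of -7.8 points. Klf2, a factor of lymphocyte quiescence and trafficking, ranked at 59.7, 59.5 and 76.1 in HEL-Mlo and at 93.3, 91.3 and 94.4 in HEL-Mhi (-27.9 ± 4.4 points, SE, adjusted p = 0.0039). Gadd45a, a stress and growth arrest gene, ranked at 55.9, 56.0 and 57.5 in HEL-Mlo and at 69.6, 70.1 and 68.7 in HEL-Mhi (-13.0 ± 2.1 points, adjusted p = 0.0043). Sesn1, which restrains the growth kinase mTORC1, fell by 13.4 points (adjusted p = 0.0055). The groups did not overlap in any of these 3 genes. Bcl6, Foxo3 and Btg1 fell too, and Cited2 and Sod2 rose, by 5.3 and 11.9 points; 0 genes rose without HEL-Mlo 1, HEL-Mlo 3 or HEL-Mhi 2, and 1 rose without any 1 of the others. Irs2, a FoxO target in liver, ranked too low to be tested (19.3 in HEL-Mlo and 24.4 in HEL-Mhi).

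Among targets of acute signals, several immediate early and interferon genes fell, and NF-kB targets did not pass the test. Of 19 measured immediate early genes 12 were tested, 5 fell and Myc alone rose, with a median of -4.2 points; 3 fell without any 1 of the arrays other than HEL-Mlo 2, and 2 rose without HEL-Mlo 3. Dusp2, a phosphatase of MAP kinases, fell by 4.4 points (adjusted p = 0.0025) and Klf6, a zinc finger factor, by 14.4 points (adjusted p = 0.0078). Egr1, an early target of receptor signals, ranked at 63.6, 60.5 and 64.6 in HEL-Mlo and at 55.0, 73.3 and 47.8 in HEL-Mhi, with overlap, and did not pass (adjusted p = 0.63). Of 17 measured interferon targets 10 were tested and 4 fell, with a median of -10.7 points: Irf9, Isg15, Tap1 and Ifi27l2a, the last at 73.3, 79.1 and 78.5 in HEL-Mlo and 91.5, 93.6 and 96.3 in HEL-Mhi (-16.8 ± 2.0 points, SE, adjusted p = 0.0012). Of 16 measured NF-kB targets 11 were tested and 0 were called by limma; the median was -7.9 points, and the smallest adjusted p was 0.097, for the inhibitor Nfkbie (-13.3 points). Without HEL-Mlo 3 or without HEL-Mhi 1, 1 NF-kB target fell. Of 9 measured p53 targets 7 were tested and 2 fell, Gadd45a and Btg2, with a median of -4.4 points.

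In the Bcl2 family, which controls survival, 9 of 10 measured genes were tested. Mcl1, an antiapoptotic member, ranked at 83.9, 81.8 and 86.7 in HEL-Mlo and at 94.2, 94.7 and 95.7 in HEL-Mhi (-10.7 ± 1.3 points, SE, adjusted p = 0.0012), without overlap. Bid, a proapoptotic member, rose by 11.2 points (adjusted p = 0.015), a call lost without HEL-Mlo 1, HEL-Mhi 1 or HEL-Mhi 2. Bcl2 and Bcl2l1 differed by -3.4 and 2.3 points and did not pass (adjusted p = 0.38 and 0.44).

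The remaining largest rises came from unrelated genes. Rangrf, a factor that releases GTP from Ran, ranked at 73.3, 71.8 and 73.9 in HEL-Mlo and at 40.5, 18.2 and 23.0 in HEL-Mhi (45.8 ± 5.8 points, SE, adjusted p = 0.0016). Car2, a cytosolic carbonic anhydrase, ranked at 94.4, 94.5 and 92.0 in HEL-Mlo and at 58.7, 53.2 and 60.3 in HEL-Mhi (36.2 ± 2.6 points, adjusted p = 0.00039). Gsto1, a glutathione transferase, rose by 37.3 points (adjusted p = 0.00081) and the tetraspanin Tspan4 by 43.6 points (adjusted p = 0.009). None overlapped between groups, but Tspan4 ranked at 8.4, 12.1 and 12.2 in HEL-Mhi, near the floor of the array, and its call was lost without HEL-Mlo 1 or HEL-Mlo 3.

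The largest falls included membrane proteins of lymphocytes. Ms4a4c, a relative of CD20, ranked at 28.9, 18.4 and 16.6 in HEL-Mlo, against 73.1, 80.3 and 79.4 in HEL-Mhi (-56.3 ± 4.5 points, SE, adjusted p = 0.00046). Cd2, an adhesion receptor of mouse B and T cells, ranked at 29.7, 48.0 and 59.0 in HEL-Mlo and at 83.2, 83.6 and 89.5 in HEL-Mhi (-39.9 ± 6.7 points, adjusted p = 0.005). Il10ra, the interleukin-10 receptor, ranked at 32.4, 43.2 and 59.2 in HEL-Mlo and at 76.7, 76.2 and 84.5 in HEL-Mhi (-34.2 ± 6.3 points, adjusted p = 0.0071). Cd2 and Il10ra shared an order, with HEL-Mlo 3 highest and HEL-Mlo 1 lowest, yet no HEL-Mlo array reached the HEL-Mhi values. Evi2a, a membrane protein, was measured by 2 probe sets that differed by -35.8 and -35.2 points. Cmah, the enzyme that makes glycolylneuraminic acid, ligand of mouse CD22, fell by 47.1 points, the Kruppel-like factor Klf3 by 34.0, the actin-binding protein Cotl1 by 35.6, the phosphodiesterase-like Smpdl3a by 38.4, and Wfdc21 by 37.2 points. BC147527 fell to a mean of 16.7 in HEL-Mlo, against 56.7 in HEL-Mhi, a call lost without HEL-Mhi 3. A probe set for Itpr2, a calcium channel of the endoplasmic reticulum, differed by -35.1 points (adjusted p = 0.045), a call lost without any 1 of 5 arrays (all but HEL-Mlo 3).

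Markers of cells outside the B lineage were examined because the HEL-Mlo sort named no B220 gate. Of 14 measured T cell genes 6 were tested, 3 fell (Cd2, Cd6 and Zap70) and 0 rose by limma, and the list averaged 32.0 to 38.5 in HEL-Mlo and 40.8 to 42.8 in HEL-Mhi. The Cd6 and Zap70 calls were lost without 1 of several arrays, HEL-Mlo 1, HEL-Mhi 2 and HEL-Mhi 3 among them. The defining genes Cd3d, Cd3e and Cd3g were too low to be tested, with means of 9.0, 23.9 and 6.6 in HEL-Mlo and of 13.7, 26.1 and 15.2 in HEL-Mhi. Of 23 measured myeloid genes 12 were tested and 0 were called by limma (1 fell without HEL-Mlo 2), with means of 39.7 to 54.3 in HEL-Mlo and 42.6 to 51.4 in HEL-Mhi. Lyz2, a lysozyme of myeloid cells, ranked at 48.0, 88.1 and 71.6 in HEL-Mlo and at 61.7, 39.1 and 75.4 in HEL-Mhi, so that arrays of both groups varied and overlapped. Of 12 measured erythroid genes 5 were tested and 2 rose, Car2 and the transferrin receptor Tfrc, both also used by other cells; 1 rose without HEL-Mlo 1, HEL-Mlo 2 or HEL-Mhi 2. Hba-a1, a globin gene, ranked at 47.0, 33.0 and 50.1 in HEL-Mlo and at 61.0, 50.3 and 48.4 in HEL-Mhi (adjusted p = 0.24). The lists of mast cells with basophils and eosinophils (14 measured, 2 tested), dendritic cells (8 and 5) and stromal cells (16 and 5) had 0 calls by limma (1 dendritic cell gene fell without HEL-Mlo 2), and of 11 NK cell genes none ranked high enough to be tested. The part of such cells in the differences above was not tested.

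Of 3 probe sets for variable genes of the T cell receptor gamma chain, chosen after their values were seen, 2 rose. The Trgv4 probe set ranked at 74.5, 56.6 and 78.6 in HEL-Mlo and at 31.4, 40.4 and 35.7 in HEL-Mhi (34.1 ± 5.9 points, SE, adjusted p = 0.0056). A second one, which matches more than 1 gamma chain gene, ranked at 84.1, 65.1 and 82.2 in HEL-Mlo and at 7.6, 13.6 and 19.9 in HEL-Mhi (63.4 ± 6.3 points, adjusted p = 0.00075). The groups did not overlap in either, and HEL-Mlo 2 was the lowest HEL-Mlo array in both. Like the Trgv1 probe set, both reached the threshold for testing only through HEL-Mlo, so the filter fixed their direction. The means of the second one were 77.1 in HEL-Mlo and 13.7 in HEL-Mhi. The probe set for Trgv1 ranked at 60.0, 54.5 and 48.5 in HEL-Mlo and at 49.0, 42.7 and 41.5 in HEL-Mhi, and did not pass (adjusted p = 0.13). The Cd3 genes, at the low means given above, were not tested, and the part of T lineage cells in this result was not tested.

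The Ctrl 48 h arrays offered a second IgM-high group, which shared the labelling text of HEL-Mlo but whose cells spent a further 48 h without IL-7. The 2 comparisons share the HEL-Mlo arrays, so their values are placed side by side and do not support each other. Of 5376 probe sets tested against Ctrl 48 h, 2565 were called (47.7%), 1275 higher (23.7%) and 1290 lower (24.0%) in HEL-Mlo, with a median difference over all ranked probe sets of -0.52 points. The sharpest contrast with the first comparison lay in cell division. Of 48 tested genes of that list 47 were higher in HEL-Mlo than in Ctrl 48 h, with a median of 31.4 points, beside 14 and 1.3 points against HEL-Mhi. Top2a ranked at 95.0, 95.3 and 95.2 in HEL-Mlo and at 45.4, 58.2 and 60.9 in Ctrl 48 h (adjusted p = 0.00021). The Ctrl 48 h cells had been without IL-7 for 48 h, carried Rag2-GFP, and were gated as B220+ and GFP-negative. Their arrays shared no scan day or chip lot with HEL-Mlo. Growth factor, time, reporter, gate, run and IgM level cannot be told apart there.

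Lists moved by like or unlike amounts in the second comparison. The Myc and nucleolus list gave 12.3 points and 19 of 19 tested genes higher against Ctrl 48 h, beside 15.8 points against HEL-Mhi. MHC class II gave -9.9 points and 10 of 11 tested genes lower against Ctrl 48 h, beside -9.8 points, and mature B cell genes gave -20.4 points and 15 of 17 tested genes lower, beside -13.7 points. Glycolysis gave 9.4 points and 10 of 14 tested genes higher against Ctrl 48 h, beside 0.4 points and 3 genes against HEL-Mhi. The cholesterol and lipid list gave 4.8 points, beside -1.9 points. NF-kB targets gave -12.3 points and 7 of 10 tested genes lower, beside -7.9 points and 0 genes, and kappa probe sets gave -7.4 points and 10 of 16 lower, beside -0.1 points and 1 probe set. Myc itself ranked at 3.8, 21.4 and 22.1 in Ctrl 48 h, below every HEL-Mlo array (86.7, 80.1 and 81.6). Among early genes the values differed. Vpreb1 ranked at 98.4, 98.1 and 98.6 in HEL-Mlo and at 20.8, 55.4 and 65.4 in Ctrl 48 h (adjusted p = 0.0044), and Dntt at 56.0, 55.3 and 74.9 in HEL-Mlo and at 9.4, 11.6 and 18.6 in Ctrl 48 h (adjusted p = 0.0014). Il7r did not separate these groups, with 58.1, 65.3 and 62.9 in HEL-Mlo and 64.1, 63.8 and 86.1 in Ctrl 48 h (adjusted p = 0.24). Xrcc6 rose by 10.5 points against Ctrl 48 h (adjusted p = 0.046), a call lost without any 1 of 5 arrays (all but Ctrl 48 h 3). Ccnd2 rose by 27.1 points (adjusted p = 0.00034), and Ifi27l2a did not pass (-1.9 points, adjusted p = 0.61).

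The study names genes as higher or lower in Cre-Mlo cells, immature B cells that lost IgM after deletion of a floxed heavy chain gene by an interferon-inducible Cre. Those genes were chosen on other arrays, of cells kept without IL-7. Of 22 measured genes named as higher, 14 were tested in HEL-Mlo against HEL-Mhi, 7 rose (Xrcc6, Vpreb1, Igll1, Il7r, Slc7a5, Lef1 and Myb) and 0 fell by limma, with a median of 5.8 points. Of 25 measured genes named as lower, 22 were tested, 17 fell and 1 rose, with a median of -10.3 points. The 1 that rose was Ccnd2. Most genes called in these sets also belong to lists above, so these counts largely repeat earlier ones.

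A further set of contrasts on the U74Av2 arrays, which share no array with the HEL groups, was ranked over the same probe sets for description. Over the 5268 probe sets tested here, the HEL-Mlo minus HEL-Mhi difference had a Pearson correlation of 0.53 with B6-M- minus Ctrl-Mhi. B6-M- were IgM-negative cells of IL-7 cultured C57BL/6 marrow. Ctrl-Mhi were IgM-high cells with knock-in receptor genes, kept without IL-7 and with interferon for 2 days. Genotype, IL-7, interferon and IgM level cannot be told apart there. Interferon targets had a median of -18.9 points in that contrast, beside -10.7 in HEL-Mlo minus HEL-Mhi. The correlation was 0.35 with FxD minus FxE (pre-B and immature B cells sorted from Balb/c marrow, with amplified RNA) and 0.21 with Cre-Mlo minus Cre-Mhi. Probe sets are not independent, and all values share the probes of the array. The median of the Myc and nucleolus list was 15.8 points in HEL-Mlo minus HEL-Mhi, 10.3 in B6-M- minus Ctrl-Mhi, -1.5 in FxD minus FxE and -0.5 in Cre-Mlo minus Cre-Mhi. The MHC class II list had medians of -9.8, -17.8, -5.8 and -9.2 points in the same order.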

How the data were processed

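The authors deposited 1 signal intensity per probe set and array. HEL-Mhi intensities were made with Microarray Suite 5.0, a U74A mask and scaling to 1500 units; for HEL-Mlo the scaling is not given in the sources used here. Of 12654 rows, 66 control probe sets and 2611 others without a HEL-Mhi value were left out. Platform annotation matched 8724 of 9977 probe sets to 1 gene, 346 to several and 907 to none. Intensities were replaced by within-array percentile ranks (ties averaged), and those whose mean reached 50 in either group entered a fit in limma 3.58.1 (R 4.3.3), with an intensity trend in eBayes, two-sided tests and Benjamini-Hochberg adjustment. The number of arrays limits the precision. List counts use the brightest probe set of each gene, and immunoglobulin lists use probe sets. Genes named are the 12 that rose most and the 12 that fell most among called, non-overlapping 1-gene probe sets, up to 4 members of each list with the smallest adjusted p, and genes listed by hand; other list members are named where a list's calls are enumerated, chosen after their values were seen. Members and lists were chosen with earlier results of these data known. The fits were tested on simulated data. Alternatives were other scores, filters, variance models, the t-test of the Methods, a replicate block and leaving out each array.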

Additional observations from a re-analysis of the deposited data

Results flagged for a closer look

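Several genes moved one way in every HEL-Mlo array relative to HEL-Mhi and the other way in every Cre-Mlo array relative to Cre-Mhi; these differences between the 2 settings were not tested. The Cre cells were cultured without IL-7 and with interferon for 2 days, and were measured on U74Av2 arrays. In percentile points, Myc differed by 45.3 between HEL-Mlo and HEL-Mhi and by -11.4 between Cre-Mlo and Cre-Mhi. Ccnd2 differed by 24.2 and by -27.6, Srm by 33.0 and by -6.2, Nme1 by 19.7 and by -8.9, Ran by 0.5 and by -0.7, and Idi1 by 3.8 and by -7.9 in the same order. In the opposite sense, Gadd45a differed by -13.0 between HEL-Mlo and HEL-Mhi and by 16.3 between Cre-Mlo and Cre-Mhi, Sesn1 by -13.4 and by 1.6, Fdft1 by -7.0 and by 6.6, Ebf1 by -6.9 and by 1.0, and Vpreb3 by -0.4 and by 0.3. Vpreb3 did not pass the test between HEL-Mlo and HEL-Mhi.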

How the results depend on the processing

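For HEL-Mlo against HEL-Mhi, the count of 1520 was 1622 with normal scores, 1614 with quantile-normalized log2 signals, 1456, 1319 and 1215 with the mean-of-6, stricter and no filters, and 1165 with no intensity trend. Leaving out single arrays gave 928 to 1484 calls, and the t-test of the Methods gave 593 at p under 0.01 and 185 after adjustment. For HEL-Mlo against Ctrl 48 h, leaving out single arrays gave 2031 to 2596 calls and that t-test 1125 and 1199. A replicate block on the array numbers gave 1591 and 2264 calls; 1420 of the first were shared with the 1520 and 0 had the opposite sign. Deviations of same-numbered arrays correlated at 0.07 to 0.24 with HEL-Mhi and at -0.22 to 0.01 with Ctrl 48 h. HEL-Mlo 1 correlated best with HEL-Mhi 2 (0.17). HEL-Mlo 2 and HEL-Mlo 3 correlated best with the HEL-Mhi arrays of the same number (0.15 and 0.24). Whether same-numbered HEL-Mlo and HEL-Mhi arrays were paired cannot be settled from these values.

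Of 98 named probe sets called against HEL-Mhi, 22 lost it under no alternative run (for 3 of them, not all could be run), 56 lost it under the t-test alone and 20 elsewhere; against Ctrl 48 h the numbers were 93, 41 (9 of them not run under all), 44 and 8. Among the named genes, signs turned only where the difference was not called. Pax5 in HEL-Mlo against HEL-Mhi was 0.18 without HEL-Mlo 1 and 0.30 without HEL-Mhi 3, in a range of -2.32 to 0.30 points. Egr1 in HEL-Mlo against HEL-Mhi was -1.20 without HEL-Mhi 3, in a range of -1.20 to 11.54 points. Ifi27l2a in HEL-Mlo against Ctrl 48 h was 0.08 without Ctrl 48 h 1, in a range of -4.01 to 0.08 points. The causes were not tested. Ranks near the top or the floor of an array limit what can be seen.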
